A study of Mus musculus with 2 samples.

Results

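The RNA of 1093 array probes on mouse chromosome 1, all with a start at or beyond 70 Mb on the mm9 build, was compared among 3 clones of embryonic stem (ES) cells. Members were chosen by position and by signal. A probe had to lie on this distal segment, belong to a gene other than Nr5a2, and be well above background and unsaturated in all 4 channels read. Of 1549 probes on the segment after removal of outlier spots, 2 belonged to Nr5a2, 405 were not well above background in every channel, and 49 were saturated in at least 1. The 1093 that passed carry 898 gene names, 701 of them with a symbol in RefSeq, and belong to 27648 probes of the whole array that passed the same filter. The remainder of chromosome 1, below 70 Mb, holds 437 such probes, and the other chromosomes 26118.

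All clones descend from ZHBTc4, a mouse ES cell line that lacks functional Oct4 alleles of its own and depends on an Oct4 transgene under doxycycline control. Each clone carried 1 further gene in the pCAG-IP vector, whose CAG promoter drives expression in most cell types: EGFP alone in clone 2-5, Oct4-EGFP in clone 9 and Nr5a2-EGFP in clone 26. The cells were grown without feeder cells and with leukemia inhibitory factor, and all were given doxycycline, which turns off the regulated Oct4, before harvest. The Nr5a2-EGFP clone was labelled with Cy5 on both arrays. Its partner in Cy3 was the EGFP clone on the array called here the EGFP array, while the Oct4 array held the Oct4-EGFP clone. Each transgene is represented by 1 monoclonal line and each pair of clones by 1 array without a dye swap, so transgene, clone and dye cannot be told apart, and nothing could be tested over samples.

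The dose of a gene is the number of copies a cell holds, and when a stretch of a chromosome is gained or lost the RNA of its genes tends to move together. ES cells in culture are known to acquire such gains, and a clone grown from a single cell carries whatever its founder had. Neighbouring genes can also move together through chromatin domains and clusters of related genes. The arrays read RNA, and the DNA copy number of these clones was not measured. In RNA from a whole culture, a change in every cell and a change in the share of cells cannot be told apart.

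The probes nearest the boundary show where the segment begins and which strand of the genome is read. 30 bases of each probe, which is 60 bases long, are given in lower case from its 5′ end, with coordinates on mm9. Among genes with a RefSeq symbol, the first pair lies just below the boundary and the second pair just above it, and the last is the final gene of the segment that is named here, Cr2. The files do not say which exon or untranslated region a probe covers.
Ikzf2, chr1:69577853-69577912, minus strand: ctcaggaacaagcatataatttgtccaaga
Spag16, chr1:69943088-69943147, plus strand: ctcagaaaagtcttcgtgaagccagggaag
Bard1, chr1:71074294-71074353, minus strand: ccatttagggatactccagtctctgatcgc
Atic, chr1:71625743-71625802, plus strand: aatggactggcgttctgcatagagcttttc
Cr2, chr1:196963012-196963071, minus strand: catgacaataatggactagaactctgaact

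Genes of the segment were also set apart by promoter, since housekeeping genes mostly start in stretches rich in CpG dinucleotides and tissue-restricted genes often do not. The windows below run from 250 bases before to 50 bases after the start of the gene, from RefSeq on GRCm38.p6, which is another build than that of the probes, and the capitals mark each CG. Both genes lie on the segment and were the brightest of their kind. The promoter of Zc3h11a, which encodes a zinc finger protein of messenger RNA export, holds 13 CG and is 50.7% G and C, with an observed over expected CG of 0.68. That of Cyb5r1, a cytochrome b5 reductase gene, holds 5 CG, is 45.7% G and C and has a ratio of 0.32.
Zc3h11a, chr1:133661350-133661649, minus strand: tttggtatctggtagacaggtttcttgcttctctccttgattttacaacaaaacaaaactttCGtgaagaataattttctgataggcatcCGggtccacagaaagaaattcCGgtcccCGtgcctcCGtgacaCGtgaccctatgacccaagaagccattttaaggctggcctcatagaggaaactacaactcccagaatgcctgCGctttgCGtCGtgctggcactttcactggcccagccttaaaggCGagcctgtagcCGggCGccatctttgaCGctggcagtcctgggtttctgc
Cyb5r1, chr1:134405531-134405830, plus strand: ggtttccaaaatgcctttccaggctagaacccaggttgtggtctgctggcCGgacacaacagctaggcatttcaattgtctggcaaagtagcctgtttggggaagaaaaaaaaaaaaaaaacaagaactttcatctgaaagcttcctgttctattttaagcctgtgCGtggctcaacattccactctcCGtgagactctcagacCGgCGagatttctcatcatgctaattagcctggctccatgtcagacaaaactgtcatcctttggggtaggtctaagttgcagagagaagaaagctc

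Between 77.8% and 79.8% of probes were well above background in each of the 4 channels. The only sample read on both arrays was the Nr5a2-EGFP clone. Its log2 levels differed between the readings with an SD of 0.28 over all probes and 0.26 over the members. At least 1.2-fold apart were 12.9% of members, beside 16.2% of all probes. Markers of ES cells were well above background in 8 of 8 cases in every channel except the Nr5a2-EGFP reading of the Oct4 array, where Pou5f1 was not. Their median log2 level was 12.3 in EGFP cells, 11.6 and 11.7 in Nr5a2-EGFP cells, and 13.7 in Oct4-EGFP cells. The single Pou5f1 probe, for Oct4, read 7.61 in EGFP cells and 7.59 in Oct4-EGFP cells, and both Nr5a2 probes were lower in Nr5a2-EGFP cells, with ratios of -0.92 and -0.39 over EGFP and -1.14 and -0.63 over Oct4-EGFP. None of them thus showed the excess that the clone labels call for, and whether they lie in the stretch of transcript that the transgenes carry is unknown, so they give no check of the labels. Of 8 trophoblast markers 7 were above background throughout, with a median log2 level of 12.4 in EGFP cells, 12.07 and 12.002 in Nr5a2-EGFP cells, and 10.1 in Oct4-EGFP cells. Elf5 was at background in all channels. Of 6 primitive endoderm markers 5 were on the array, with median log2 levels of 8.89 in EGFP cells, 9.04 and 8.91 in Nr5a2-EGFP cells, and 7.94 in Oct4-EGFP cells, and 4 were above background in every channel. All 6 fibroblast markers were above background, with median log2 levels between 7.63 and 7.998. Whether these marker levels bear on the values of the segment was not tested.

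The segment read higher in the Nr5a2-EGFP clone than in either other clone. Its median log2 ratio was 0.25 over EGFP, a fold of 1.19, and 0.20 over Oct4-EGFP, a fold of 1.15. Below 70 Mb the medians were 0.02 on each array, which leaves a difference of 0.23 (1.18-fold) on the EGFP array and 0.18 (1.13-fold) on the Oct4 array. The segment was picked because of these ratios, so its shift is a description and supports nothing by itself. Both ratios also share the RNA of the Nr5a2-EGFP clone.

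The displacement held for the whole distribution on the EGFP array. Its lower and upper quartiles on the segment were -0.07 and 0.62, where the other chromosomes had -0.35 and 0.33. The 10th and 90th percentiles were -0.46 and 1.07, beside -0.76 and 0.64. On the Oct4 array the quartiles were -0.16 and 0.53, beside -0.38 and 0.34. The width between quartiles was thus nearly the same inside and outside the segment, 0.69 against 0.68 over EGFP and 0.69 against 0.72 over Oct4-EGFP. A single log2 ratio is measured to about 0.05, the median SD among repeated spots of a probe on either array, which covers error on the slide only.

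Counts of probes past a fixed size were unequal in the same direction. A log2 ratio of at least 0.26, that is 1.2-fold, was reached by 537 members (49.1%) over EGFP, where 30.8% of all probes reached it, and by 487 (44.6%) over Oct4-EGFP, where 31.3% did. At least 1.2-fold lower were 187 members (17.1%) over EGFP, beside 29.2% of all probes, and 214 (19.6%) over Oct4-EGFP, beside 30.4%. At 2-fold, 129 members (11.8%) were higher over EGFP and 24 (2.20%) lower, against 3.49% and 5.42% of all probes. Over Oct4-EGFP these counts were 110 (10.1%) and 50 (4.57%), against 4.67% and 7.29%. These shares used the contrast that picked the segment. Below 70 Mb, 28.8% of probes were at least 1.2-fold higher over EGFP and 29.98% over Oct4-EGFP, close to the array as a whole.

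**Figure D1:**
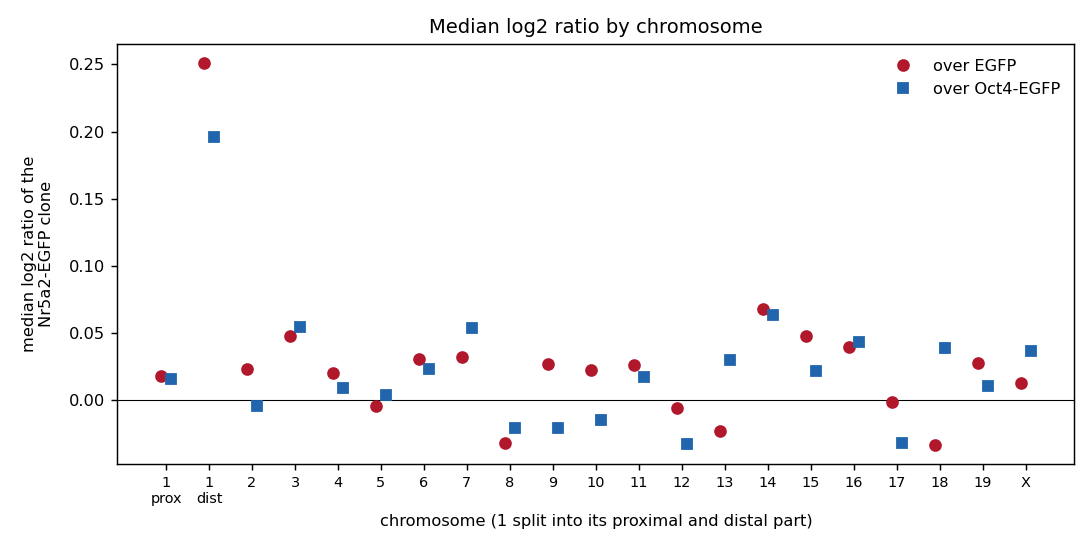
Median log2 ratio of the Nr5a2-EGFP clone (vertical axis) for the probes of each chromosome (horizontal axis), with chromosome 1 split at 70 Mb into a proximal and a distal part. Circles are ratios over EGFP and squares over Oct4-EGFP; the distal part stands at 0.25 and 0.20, and all others lie between -0.03 and 0.07.

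Among the other 19 chromosomes with enough probes, the medians lay between -0.03 and 0.07 over EGFP and between -0.03 and 0.06 over Oct4-EGFP. Chromosome 14 had the highest of these on each array. The plot of medians by chromosome shows the proximal part of chromosome 1 among them. The segment of chromosome 1 stood apart on each array, by more than the whole range of the others.

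In 5 Mb windows the ratios stayed up along most of the segment rather than at 1 point. Of 23 windows with at least 10 probes, 21 had a median above 0 over EGFP and 23 over Oct4-EGFP. Above 0 on the other chromosomes were 242 of 455 such windows over EGFP and 270 over Oct4-EGFP. Below 70 Mb they were 9 and 8 of 12. A median of at least 0.2 was found in 13 of the 23 over EGFP and in 12 over Oct4-EGFP. On the other chromosomes, 15 of 455 such windows (3.30%) reached that level over EGFP and 36 (7.91%) over Oct4-EGFP. Single windows elsewhere went higher than any on the segment over Oct4-EGFP, up to 0.97, while over EGFP the highest elsewhere was 0.47. The longest run of windows above 0 on the Oct4 array covered the whole segment, 23 windows from 70 to 200 Mb, and the next longest was 13 windows on chromosome 2. On the EGFP array the longest run was 11 windows, from 145 to 200 Mb.

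**Figure D2:**
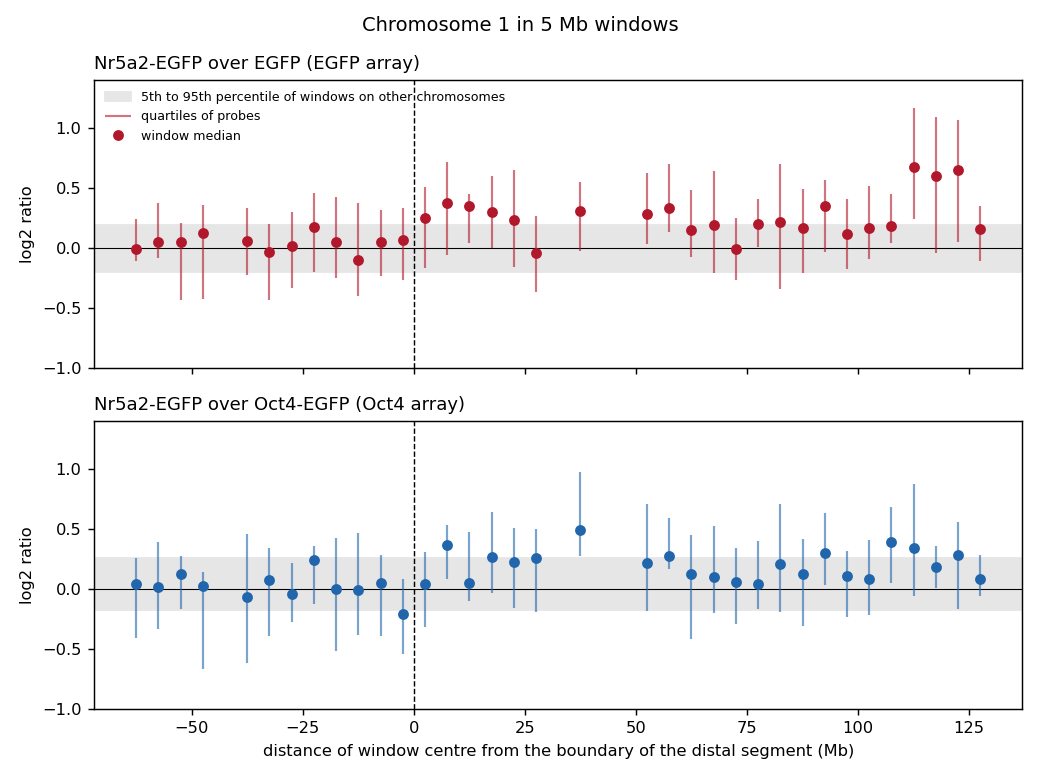
Median log2 ratio (points) and quartiles of the probes (bars) in 5 Mb windows of chromosome 1, by distance in Mb from the boundary of the segment (dashed line), over EGFP (top) and over Oct4-EGFP (bottom). The grey band holds the 5th to 95th percentile of windows on the other chromosomes, -0.21 to 0.19 and -0.18 to 0.26. To the right of the line 21 and 23 of 23 medians lie above 0, beside 242 and 270 of 455 on the other chromosomes.

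The rise varied along the segment. The first window, 70 to 75 Mb, had medians of 0.24 over EGFP and 0.04 over Oct4-EGFP from 73 probes. The next, 75 to 80 Mb, had 0.37 on each array. Over EGFP the lowest medians were -0.04 at 95 to 100 Mb and -0.01 at 140 to 145 Mb. These windows read 0.26 and 0.05 over Oct4-EGFP. The highest window over Oct4-EGFP was 105 to 110 Mb, at 0.49 from 19 probes, where the ratio over EGFP was 0.30. Between 130 and 180 Mb the medians ran from -0.01 to 0.35 over EGFP and from 0.04 to 0.39 over Oct4-EGFP. The last window, 195 to 200 Mb, had 14 probes and medians of 0.16 and 0.08. The windows at 100, 110 and 115 Mb held 4, 4 and 3 probes and are not described.

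The boundary is not sharp at this probe density. In the last 2 windows below it, 60 to 65 Mb and 65 to 70 Mb, the medians were 0.05 and 0.06 over EGFP and 0.05 and -0.21 over Oct4-EGFP. The 6 probes between 69 and 70 Mb had a median of 0.41 over EGFP and a median near 0 over Oct4-EGFP. When the chromosome was split at every 5 Mb from 20 to 170 Mb, the difference between the sides over EGFP was greatest at 65 Mb (0.23) and 70 Mb (0.23). Splits at 175 and 180 Mb gave more, 0.31 and 0.43. Over Oct4-EGFP the greatest difference fell at 75 Mb (0.19), with 0.18 at 70 Mb.

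Single genes on either side of the boundary did not line up with it. Just below, Spag16, a gene of the sperm axoneme, had -0.56 over EGFP and 0.26 over Oct4-EGFP, and Ikzf2, which encodes the zinc finger factor Helios, 0.84 and 1.27. Pced1c-ps had 0.74 and -0.81, and Cps1, the first enzyme of the urea cycle, -0.04 and -0.07. Just above, the only member between 70 and 71 Mb, which has no RefSeq symbol, had -0.17 over EGFP and -0.87 over Oct4-EGFP. Bard1, the partner of the repair protein BRCA1, had -0.01 and -0.32, the latter 0.038 as the mean over its probes. Atic, an enzyme of purine synthesis, had 1.08 and 0.31, Fn1, the fibronectin gene, 0.11 and -0.70, and Apol7d 1.23 and -0.03. The spread among neighbours was thus wider than the shift of the segment, which shows in medians over many probes.

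A block from 180 to 195 Mb, chosen after its values were seen, stood above the remainder of the segment on the EGFP array. Its 154 probes had a median of 0.64 over EGFP, a fold of 1.56, beside 0.22 for 70 to 180 Mb. Over Oct4-EGFP the block had 0.27, beside 0.19. At least 1.2-fold higher over EGFP were 105 of its probes (68.2%), beside 46.2% for 70 to 180 Mb and 30.8% of all probes. At least 2-fold higher were 47 (30.5%), beside 8.86% and 3.49%. Over Oct4-EGFP the block stood out less. There 77 of its probes (50%) were at least 1.2-fold higher, beside 43.9% for 70 to 180 Mb and 31.3% of all probes. At least 2-fold higher were 20 (12.99%), beside 9.73% and 4.67%. The medians of the 3 windows of the block were 0.67, 0.59 and 0.65 over EGFP and 0.34, 0.18 and 0.28 over Oct4-EGFP.

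The contrast of the clones without the Nr5a2 transgene, Oct4-EGFP over EGFP, was taken from the Cy3 levels after both arrays were brought to 1 scale. It was not used to choose the segment, although its channels are the denominators of the ratios that were. The segment had a median of 0.03 in it, beside -0.03 below 70 Mb and a range of -0.10 to 0.04 over the other chromosomes. Past 1.2-fold, 34.9% of members read higher with Oct4-EGFP and 30.8% lower, where 32.9% and 33.9% of all probes were. Past 2-fold the shares were 9.52% and 6.95%, beside 8.66% and 8.24%. Its 23 windows had medians from -0.18 to 0.25, with 11 above 0, beside 172 of 455 windows on the other chromosomes. From 70 to 180 Mb the median was -0.02.

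The block from 180 to 195 Mb was chosen after its values over EGFP were seen, and that ratio shares the EGFP channel with this contrast. The values of the block here are thus a description and support nothing by themselves. Its median was 0.23, a fold of 1.17, with the 3 windows at 0.21, 0.23 and 0.25. On the other chromosomes 4.84% of windows reached 0.2. The block therefore read lowest in the EGFP clone, higher in the Oct4-EGFP clone and highest in the Nr5a2-EGFP clone, by medians of 0.23, 0.27 and 0.64 for the 3 contrasts. The Cy5 levels of the Nr5a2-EGFP clone were level between the arrays over the block (-0.01) and over the whole segment (0.01).

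**Figure D3:**
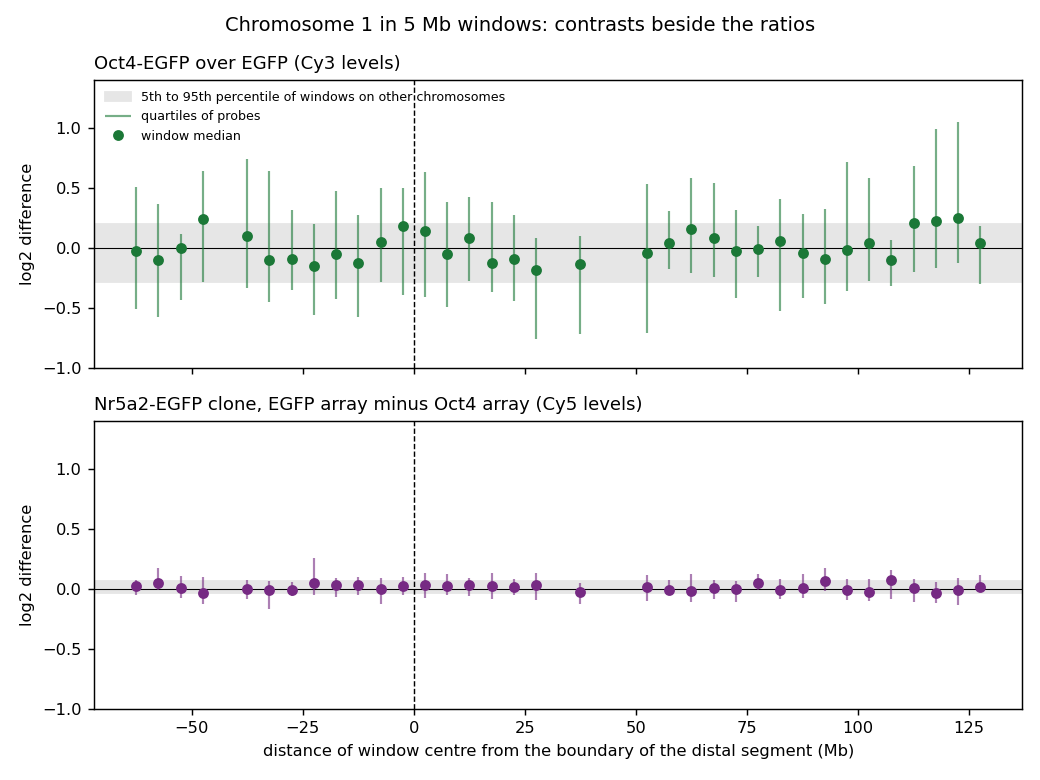
The 5 Mb windows of chromosome 1 on the same axes for Oct4-EGFP over EGFP (top) and for the Nr5a2-EGFP clone on the EGFP array minus the Oct4 array (bottom). Points are medians, bars quartiles of the probes, and the grey band the 5th to 95th percentile of windows on the other chromosomes; at 180 to 195 Mb the top medians are 0.21, 0.23 and 0.25, and all bottom medians to the right of the line lie between -0.03 and 0.07.

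The shift grew with the brightness of the probe. Probes of the whole array were ordered by their mean level over the 4 channels and cut into 4 classes of equal size. On the segment the medians over EGFP were 0.13, 0.18, 0.40 and 0.43 from the dimmest to the brightest class, and over Oct4-EGFP 0.06, 0.16, 0.26 and 0.32. On the other chromosomes no class had a median beyond -0.01 to 0.05. The offset of 50 added in the background correction pulls ratios of dim probes toward 0. With an offset of 0 the median of all members was 0.30 over EGFP and 0.22 over Oct4-EGFP. The classes were not recomputed at that offset, so its part in the climb was not tested.

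**Figure D4:**
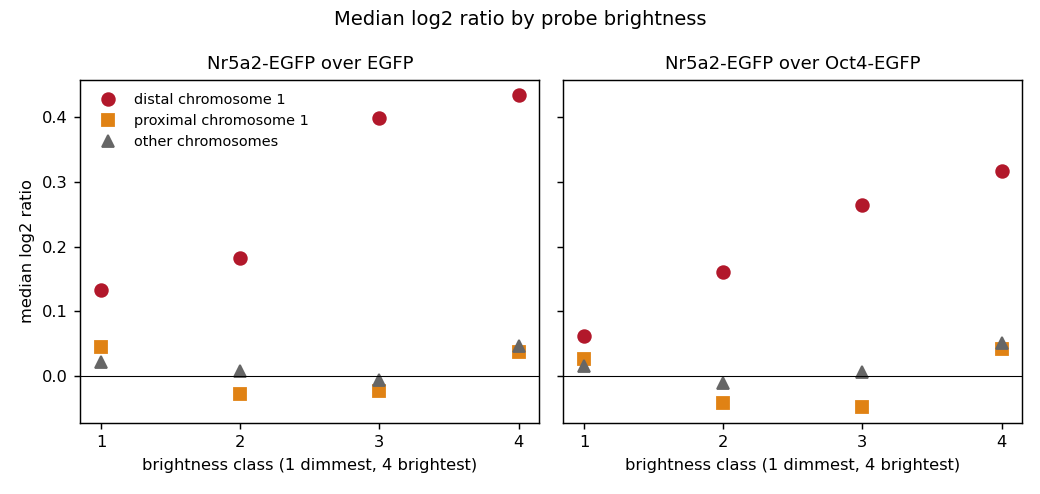
Median log2 ratio of the Nr5a2-EGFP clone over EGFP (left) and over Oct4-EGFP (right) by class of mean level (1 dimmest, 4 brightest), for the distal segment, the proximal part of chromosome 1 and the other chromosomes. On the segment the medians climb from 0.13 to 0.43 and from 0.06 to 0.32, while the other sets stay between -0.05 and 0.05.

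Promoter class divided the members in a similar way. A promoter was called CpG-rich if at least 50% of its 300 bases were G or C and its observed over expected CG was at least 0.6, which held for 33.5% of 32851 promoters in the table. Of the member genes, 599 had an entry, 85.4% of those with a symbol. The 329 with a CpG-rich promoter, like that of Zc3h11a above, had medians of 0.35 over EGFP and 0.28 over Oct4-EGFP. On other chromosomes this class had -0.05 and -0.03. The 270 others, like Cyb5r1, had 0.20 and 0.15, beside 0.07 and 0.06.

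Brightness and promoter class go together, since the median log2 level was 10.9 for CpG-rich members and 9.12 for the others. In the brighter genes, the segment stood above other chromosomes by 0.50 over EGFP and 0.35 over Oct4-EGFP with CpG-rich promoters, and by 0.40 and 0.26 without. In the dimmer genes the differences were 0.22 and 0.24 with and 0.06 and 0.02 without. Zc3h11a itself had log2 levels of 14.26 in EGFP cells, 14.95 in Oct4-EGFP cells, and 15.40 and 15.48 in Nr5a2-EGFP cells. Its other probe had ratios of 0.39 and 0.33. Cyb5r1 read 12.92 (EGFP), 13.16 (Oct4-EGFP) and 13.56 and 13.59 (Nr5a2-EGFP). Both genes were highest in Nr5a2-EGFP cells.

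The brightest gene of each window was taken without regard to its own ratio, although the windows belong to a segment chosen by these ratios, so the values describe the members and support nothing. Of 26 such genes, 24 had a ratio above 0 over EGFP and 24 over Oct4-EGFP, where 53.5% and 52.8% of all genes did. Their medians were 0.58 and 0.46. The brightest genes of 494 windows on the other chromosomes had medians of 0.12 and 0.18, with 59.5% above 0 over EGFP and 65.4% over Oct4-EGFP. In thinly filled windows the brightest gene can be dim, as with Cntnap5b at a mean log2 level of 7.80. At least 1.2-fold higher were 22 of 26 over EGFP and 19 over Oct4-EGFP, beside 31.8% and 32.0% of all genes, and at least 1.2-fold lower were 0 and 1. The range was -0.06 to 1.86 over EGFP and -1.21 to 1.96 over Oct4-EGFP.

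Several of these genes run basic machinery of the cell. Ppp2r5a (chr1:193175883-193175942), a regulatory subunit of the phosphatase PP2A, had log2 levels of 13.05 in EGFP cells, 13.17 in Oct4-EGFP cells, and 14.91 and 15.13 in Nr5a2-EGFP cells. Its log2 ratios were 1.86 over EGFP and 1.96 over Oct4-EGFP, among the largest of this set. Ilkap, a phosphatase of integrin-linked kinase, read 14.26 in EGFP cells, 14.28 in Oct4-EGFP cells, and 15.48 and 15.49 in Nr5a2-EGFP cells. R3hdm1 read 14.55, 14.65, and 15.56 and 15.61, in the same order of clones. For these 3 genes the EGFP and Oct4-EGFP clones lay within 0.12 of each other and the Nr5a2-EGFP clone stood clearly above.

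H3f3a (chr1:182732757-182732816), which encodes the replacement histone H3.3, read 13.05 in EGFP cells, 13.59 in Oct4-EGFP cells, and 14.57 and 14.71 in Nr5a2-EGFP cells. Its log2 ratios were 1.52 and 1.13, and its other probe gave 1.45 and 0.53. Trip12, a ubiquitin ligase gene, read 14.99, 14.25, and 15.38 and 15.36, in the same order of clones. The Nr5a2-EGFP clone was the highest for both genes, while the order of the other clones was opposite in them.

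Kdsr, an enzyme of sphingolipid synthesis, had 0.61 over EGFP and 0.49 over Oct4-EGFP. Slc35f5, a solute carrier gene, had 0.79 and 0.65, Uchl5, a deubiquitinase of the proteasome, 0.43 and 0.59, and Zbtb18, a transcriptional repressor, 0.70 and 1.00. Nek7, a mitotic kinase gene, had 0.47 and 0.34, Ctdsp1, a phosphatase of RNA polymerase, 0.47 and 0.18, and Cops7b, a subunit of the COP9 signalosome, 0.57 and 0.94. Cntnap5b, a contactin-associated protein gene, was near 0 over EGFP and at 0.42 over Oct4-EGFP, and Alyref2, a relative of a messenger RNA export adaptor, at 0.15 and -0.21. Aldh9a1, an aldehyde dehydrogenase, was at 0.03 and 0.24, and Hsd11b1, the cortisone reductase, at -0.06 and 0.21. The latter pair lies in the windows that begin at 165 and 195 Mb, which had medians of 0.12 and 0.16 over EGFP.

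Inhbb, the activin beta B subunit gene, was the exception with a strong opposite ratio. It read 13.49 in EGFP cells, 15.99 in Oct4-EGFP cells, and 13.89 and 14.78 in Nr5a2-EGFP cells, which gives 0.39 over EGFP and -1.21 over Oct4-EGFP. The reading of the Nr5a2-EGFP clone on the EGFP array minus that on the Oct4 array was -0.90. Tfcp2l1, a transcription factor of naive ES cells, read 13.29, 15.34, and 13.77 and 14.10. Both genes were highest in the Oct4-EGFP clone and lowest in the EGFP clone.

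The members with the highest mean of both ratios went far beyond the shift of the segment. Enah, an actin regulator in the block from 180 to 195 Mb, read 10.50 in EGFP cells, 12.33 in Oct4-EGFP cells, and 13.62 and 13.72 in Nr5a2-EGFP cells. Its ratios were 3.12 and 1.39, and its other probe gave 0.92 and 0.55. Arl4c, a small GTPase gene, read 13.05, 12.14, and 14.69 and 14.75. Tmem37, a calcium channel subunit gene, read 12.80, 11.46, and 14.19 and 14.27. Igfbp5, which encodes an insulin-like growth factor binding protein, read 8.97, 7.68, and 10.36 and 10.22. These genes were highest in the Nr5a2-EGFP clone, and for Arl4c, Tmem37 and Igfbp5 the Oct4-EGFP clone was lowest. Chil1, a chitinase-like gene, was past 1.2-fold on the Oct4 array alone, with 13.14 in EGFP cells, 9.21 in Oct4-EGFP cells, and 13.39 and 13.43 in Nr5a2-EGFP cells.

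The members with the lowest mean of both ratios lay as far out in the other direction. Rgs2, a regulator of G protein signalling, read 9.06 in EGFP cells, 9.13 in Oct4-EGFP cells, and 7.12 and 7.11 in Nr5a2-EGFP cells, with ratios of -1.94 and -2.03. Dusp28, a phosphatase gene, read 10.46, 10.23, and 8.74 and 8.48. These genes were lower in the Nr5a2-EGFP clone than in both others by about the same amount. Adcy10, the soluble adenylyl cyclase gene, had -1.53 and -4.52. Tmcc2 and Nmnat2, an enzyme of NAD synthesis, were near 0 over EGFP (-0.01 and -0.06) and at -4.23 and -3.01 over Oct4-EGFP, and with the other array's reading they had 0.59 and 0.41 over EGFP. Their Oct4-EGFP level was 4.82 and 3.43 above that of EGFP cells.

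Genes of the segment were also grouped by function, into 7 lists that were drawn up with the shift of the segment known. Beside each count stand 31.8% of all genes that were at least 1.2-fold higher and 28.3% lower over EGFP, and 32.0% and 29.6% over Oct4-EGFP. The medians of all genes were 0.04 on each array. Those of the 691 genes of the segment in no list were 0.23 over EGFP and 0.18 over Oct4-EGFP. The median log2 level of these 691 genes was 9.56, while those of the lists ran from 9.14 (immune) to 12.25 (mitochondrial and metabolic), with 11.76 for RNA processing. The shift grew with brightness and the lists were not matched for level. Whether any list exceeds the segment at its own level was not tested.

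RNA processing and translation had the highest medians of the 7 lists, 0.55 over EGFP and 0.45 over Oct4-EGFP for 26 measured of 28 on the array. At least 1.2-fold higher were 15 over EGFP and 18 over Oct4-EGFP, and lower were 0 and 1. Snrpe, a subunit of the Sm ring of spliceosomal particles, had 0.11 and 0.39, and Tsn, the RNA-binding protein translin, -0.14 and 0.82. Dis3l2, an exonuclease gene, had 0.26 and 0.12 at its brighter probe and 1.59 and 1.34 at the other. Its probes thus disagreed by more than the shift itself.

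Chromatin and transcription genes had medians of 0.39 and 0.26 for 37 members, with 24 higher and 3 lower over EGFP and 18 higher and 7 lower over Oct4-EGFP. Kdm5b, a demethylase of histone H3, read 14.30 in EGFP cells, 13.79 in Oct4-EGFP cells, and 15.10 and 15.07 in Nr5a2-EGFP cells. Its ratios of 0.81 and 1.28 were 0.63 and 0.74 at the other probe. With H3f3a and Trip12, it was highest in the Nr5a2-EGFP clone, whereas Tfcp2l1 was not.

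Mitochondrial and metabolic genes had medians of 0.44 over EGFP and 0.21 over Oct4-EGFP (31 members, 18 higher and 2 lower over EGFP, 13 and 6 over Oct4-EGFP). Prdx6, a peroxiredoxin that removes lipid peroxides, read 13.45 in EGFP cells, 13.94 in Oct4-EGFP cells, and 15.08 and 14.68 in Nr5a2-EGFP cells. Glul, glutamine synthetase, had ratios of 0.48 and 1.21, and Mff, a receptor of mitochondrial fission, 0.54 and 0.23. All 3 were highest in the Nr5a2-EGFP clone, by different margins over each of the others.

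The 24 cell cycle genes had medians of 0.07 over EGFP and 0.30 over Oct4-EGFP, with 10 higher and 5 lower over EGFP and 13 and 5 over Oct4-EGFP. Mcm6, a subunit of the replicative helicase, read 13.91 in EGFP cells, 13.23 in Oct4-EGFP cells, and 13.87 and 14.28 in Nr5a2-EGFP cells. Ivns1abp had 0.98 and 1.29. Cytoskeleton and trafficking genes had 0.15 and 0.40 over 34 members, with 15 higher and 8 lower over EGFP and 18 and 8 over Oct4-EGFP. Tor1aip2, a protein of the endoplasmic reticulum that activates torsin, had 1.33 and 1.71 at its brighter probe and -0.45 and -0.55 at the other. Csrp1, a LIM domain gene, had -0.26 and -0.10.

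The signalling and extracellular matrix list had medians of 0.22 over EGFP and 0.03 over Oct4-EGFP. Of its 36 members, 16 were higher and 5 lower over EGFP, and 11 higher and 12 lower over Oct4-EGFP. Lamc1, the laminin gamma 1 chain gene, read 13.12 in EGFP cells, 14.47 in Oct4-EGFP cells, and 14.84 and 14.82 in Nr5a2-EGFP cells. Igfbp2 had 1.12 and 1.49, and the survival gene Bcl2 0.22 and -0.09. Immune and haematopoietic genes, which ES cells express at low levels, had 19 of 34 members measured, with medians of 0.17 and 0.04. At least 1.2-fold higher were 7 over EGFP and 5 over Oct4-EGFP, and lower were 3 and 7. Fcgr3, an Fc receptor gene, had 1.02 and -1.99, and the coagulation factor gene F5 -1.02 and -0.72, but -0.16 and 0.25 at its other probe. Cr2, a complement receptor gene, had 0.26 and 0.17, and Lax1, an adaptor of lymphocyte signalling, 0.23 and 0.21.

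Lists of complexes place a subunit from the segment beside partners that are encoded elsewhere, in the same cells and on the same array. Some lists, such as those of the laminins and PRC1, join members of more than 1 form of a complex. Not all of their partners need occur together with the subunit of the segment. Of 18 complexes listed, 17 had a measured subunit on the segment and at least 1 elsewhere. The ratios are those that picked the segment, so the counts describe the members and support nothing. No such count was made for subunits of other regions. The subunit of the segment stood above the median of its partners in 14 of 17 over EGFP and in 12 over Oct4-EGFP. The median difference was 0.48 over EGFP and 0.50 over Oct4-EGFP. The subunits of the segment had a median of 0.26 over EGFP and the partners -0.21, so that both sides entered the difference. Over Oct4-EGFP they had 0.33 and -0.09.

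**Figure D5:**
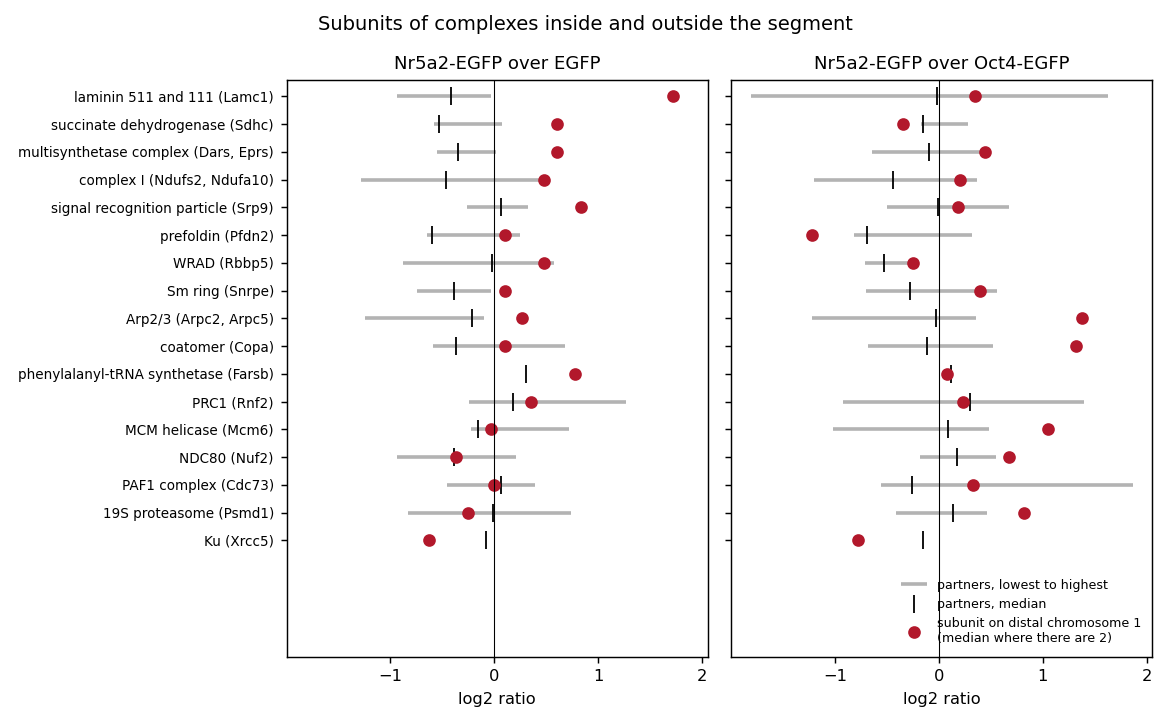
Log2 ratio (horizontal axis) of the subunits on the distal segment (circles, the median where there are 2) and of partners encoded elsewhere (bar from lowest to highest, tick at the median) for 17 complexes, over EGFP (left) and over Oct4-EGFP (right). The circle lies right of the tick in 14 of 17 complexes on the left and 12 on the right.

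The Arp2/3 complex, which nucleates branched actin, has Arpc2 and Arpc5 on the segment. Their median ratio was 0.26 over EGFP and 1.38 over Oct4-EGFP, while the 5 partners lay between -1.24 and -0.10 and between -1.22 and 0.35. Arpc5 read 12.21 in EGFP cells, 11.61 in Oct4-EGFP cells, and 13.26 and 13.36 in Nr5a2-EGFP cells. These levels give ratios of 1.05 and 1.74, and its other probe, which does not enter the median, had 0.23 and 0.73. Arpc2 read 13.34, 12.36, and 12.82 and 13.37, with a ratio of -0.52 over EGFP, or 0.025 when the Nr5a2-EGFP level of the other array was used. The multisynthetase complex of aminoacyl-tRNA synthetases has Dars and Eprs on the segment, with ratios of 0.50 and 0.72 over EGFP and 0.46 and 0.43 over Oct4-EGFP. Their median was above all 9 partners on each array, which had medians of -0.35 and -0.09.

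Subunits of the respiratory chain were above the median of their partners over EGFP. In complex I, Ndufa10 had 0.19 and 0.57, while 22 partners had medians of -0.46 over EGFP and -0.44 over Oct4-EGFP. Sdhc of succinate dehydrogenase had 0.60 and -0.35, beside partner medians of -0.53 and -0.16. Copa, the alpha coat protein of Golgi vesicles, had 0.11 and 1.32 beside -0.37 and -0.12. Srp9 of the signal recognition particle had 0.83 and 0.18, and its other probe 1.16 and 0.58, beside 0.07 and -0.01. Snrpe had partner medians of -0.38 and -0.28, but its readings in the Nr5a2-EGFP clone differed by 1.12. With the reading of the other array its ratio over EGFP was -1.01 in place of 0.11, below all 6 partners, and its other probe had -0.14. The subunits named here for these 5 complexes lay above the median of their partners on the EGFP array, Snrpe only with that array's own reading, and all except Sdhc on the Oct4 array too.

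Lamc1 had the widest gap over EGFP, 1.72 beside a median of -0.41 for 4 other laminin chains, and 0.35 beside -0.02 over Oct4-EGFP. Farsb, the beta subunit of phenylalanyl-tRNA synthetase, had 0.77 and 0.08 beside 0.31 and 0.11 for its partner. Rbbp5 of the histone methyltransferase core had 0.48 and -0.25 beside -0.02 and -0.53, and Rnf2 of PRC1 0.36 and 0.23 beside 0.18 and 0.30. Mcm6 had -0.03 and 1.05 beside -0.16 and 0.09, and Nuf2 of the kinetochore -0.36 and 0.67 beside -0.39 and 0.17. The other probe of Nuf2 had 0.035 and -0.16, so that on each array its sign was opposite, and over Oct4-EGFP it lay below the median of the partners. With the other array's reading Mcm6 had 0.37 over EGFP and 0.65 over Oct4-EGFP, and Farsb 0.38 and 0.47. Partner values with that reading are not given here. With each array's own reading, the gap for Farsb, Mcm6 and Nuf2 was wide on 1 array and narrow on the other.

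A few subunits went the other way. Xrcc5, the Ku80 gene of DNA end joining, read 12.97 in EGFP cells, 13.11 in Oct4-EGFP cells, and 12.34 and 12.33 in Nr5a2-EGFP cells. Its ratios of -0.63 and -0.78 lay below those of its partner, -0.08 and -0.15. Psmd1 of the regulatory particle of the proteasome had -0.25 and 0.81, beside partner medians of -0.01 and 0.13, and Cdc73 of the PAF1 complex was near 0 over EGFP and 0.33 over Oct4-EGFP, beside 0.06 and -0.26. Pfdn2 of prefoldin had 0.11 and -1.22, beside -0.59 and -0.69. Rab3gap1 and Rab3gap2, which form 1 complex and both lie on the segment, had -0.25 and 2.12 over EGFP and 0.80 and -0.24 over Oct4-EGFP.

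Where a gene had several probes, they could disagree. Of the 898 genes, 173 had more than 1 member probe. The other probe of Copa had 0.54 over EGFP and 0.67 over Oct4-EGFP, that of Apol7d 0.12 and -0.30, and that of Cr2 0.18 and -0.06. Ikzf2, below the boundary, had 0.81 and -0.02 at its other probe. With 1 probe per gene, that of highest mean level, the median of the segment was 0.25 over EGFP and 0.19 over Oct4-EGFP, and with the mean over probes it was 0.22 and 0.19. Without members at least 2-fold apart on either array, 0.18 and 0.15 remained. Leaving out any single 5 Mb window kept the median between 0.23 and 0.26 over EGFP and between 0.18 and 0.21 over Oct4-EGFP.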

How the data were processed

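The arrays are of Agilent design 026655. The deposited spot intensities come from Feature Extraction, which is version 10.7.3.1 in the file headers and 9.3.2.1 in the submitters' processing notes, with probe positions on mm9. The software's log10 ratio of Cy5 over Cy3, and the flags for background, saturation and outliers, were used as deposited. A deposited table of log2 values, of unstated centring, served as an alternative. Mean signals were corrected with normexp (offset 50) and loess within each array in limma 3.58.1 (R 4.3.3), and single channels were scaled with Aquantile. Control and outlier spots were left out and spots of a probe averaged. The steps were tested on simulated arrays. Levels are log2 intensities. They are compared between clones within a gene or a list, and between genes only as brightness. Names were updated through RefSeq accessions, where 65.8% of probes matched. The genes named were the brightest per 5 Mb window, the 5 highest and 5 lowest by the mean ratio, the 4 nearest the boundary on each side, complex subunits, and the 4 brightest of each list, 1 probe per gene. Cyb5r1, the brightest with a CpG-poor promoter, lies outside this rule. The segment, the lists and the rule were chosen with earlier results of these data known. Some genes the rule named are not given.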

Additional observations from a re-analysis of the deposited data

How the results depend on the processing

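The direction of the shift was kept under every alternative tried. The scanner software's ratio gave a median of 0.35 over EGFP and 0.27 over Oct4-EGFP on the segment, and a difference from the proximal part of 0.33 over EGFP. The deposited value table gave 0.34, 0.29 and 0.32. With no filter on background or saturation these were 0.15, 0.13 and 0.16, and over the brighter 50% of probes 0.42, 0.30 and 0.41, with a difference of 0.28 over Oct4-EGFP. Without probes at least 2-fold apart the median over EGFP was 0.18 and the differences 0.15 and 0.11. Calls at 1.5-fold took in 27.7% and 22.8% of members. The share of all probes at 1.5-fold was not counted, so these shares have nothing to be set against. Other normalizations, boundaries from 60 to 80 Mb, the other array's Nr5a2-EGFP level, gene-level values, members whose Nr5a2-EGFP readings lie within 1.5-fold, and removal of the block from 180 to 195 Mb, an alternative chosen after seeing the data, moved these medians by less than the spot SD. The counts of complexes and lists stayed within 1.5 times theirs, a wide bound for counts near their maximum, so it says little about stability. Of 17 complexes, 11 in place of 14 counted over EGFP when the Nr5a2-EGFP reading came from the Oct4 array. Over Oct4-EGFP, 14 in place of 12 did with the reading of the EGFP array. Lists with a median above that of all genes were 7 of 7 over EGFP throughout, and from 5 to 7 over Oct4-EGFP. Of the named genes with a ratio of at least 1.2-fold, Arpc2 (0.025) and Gm15427 (-0.19) over EGFP changed sign with the other array's level, and Bard1 over Oct4-EGFP (0.038) with the mean over probes; the cause was not tested. Among those with smaller ratios over EGFP, Snrpe (-1.01), Tmcc2 (0.59), Nmnat2 (0.41) and Mcm6 (0.37) went past 1.2-fold with the opposite sign under the other array's level.

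No paired analysis was possible because every group holds 1 array. With so few arrays no error between cultures is known, dim probes give compressed ratios, and no dye was swapped, so a dye effect specific to a gene enters both direct ratios. The Cy3 contrast has no such effect, but it includes the difference between the arrays.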
